A study of Homo sapiens with 6 samples.

Results

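Olfactory receptor genes are the largest gene family of the human genome. Most of them stand in tandem clusters, and each sensory neuron of the nose expresses a single receptor allele, while other cells, cardiac muscle included, keep nearly all of the clusters silent in compact chromatin. The accessible sites described here are those of 10 windows over such clusters, which together span 7.58 Mb of the build hg19. On chromosome 1 the window runs from 247.55 to 248.9 Mb, on chromosome 6 from 29 to 29.6 Mb, on chromosome 9 from 107.2 to 107.5 Mb, on chromosome 14 from 20.15 to 20.75 Mb and on chromosome 19 from 9.1 to 9.38 Mb. The other 5 lie on chromosome 11, and the first runs from 4.35 to 5.2 Mb, the second from 5.35 to 6.25 Mb, the third from 55 to 56.6 Mb, the fourth from 57.9 to 58.3 Mb and the fifth from 123.6 to 124.3 Mb. Overlapping peaks (1 bp or more) from the 6 lists were joined into 157560 regions, and 130 of these 157560 had their midpoint in a window.

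ATAC-seq, an assay that uses the transposase Tn5 to cut and tag open DNA, was applied to cultures of ventricular-like cardiomyocytes made from the embryonic stem cell line H9 and taken at day 15 of differentiation. Knockdown cultures, in which ZNF436, a KRAB zinc finger protein, was the target, gave 3 libraries, and control cultures gave 3. Each library was made from 50000 cells of an independent differentiation, and both groups went through the same ventricular differentiation. The labels do not say how the knockdown was made or what the control cultures received. The 3 knockdown lists held 87871 to 115864 called peaks and the 3 control lists 50719 to 68342, and the depth behind these lists is unknown. The lists come from bulk cultures, so a site open in few cells and a site weakly open in all cells cannot be told apart. No gene annotation of hg19 was used, so neither the knockdown nor cardiomyocyte markers were checked, and regions are given by position without a gene.

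RefSeq lists 318 protein-coding olfactory receptor genes and 319 receptor pseudogenes on the 6 chromosomes that carry windows, with 171 of the genes and 205 of the pseudogenes on chromosome 11. The clusters are not made of receptors alone. In the RefSeq gene order, TRIM21, TRIM68, TRIM5, TRIM6, TRIM34 and TRIM22, which encode ubiquitin ligases with roles in antiviral defence or protein turnover, stand among the receptors of the short arm of chromosome 11. TRIM58, a ubiquitin ligase of red cell precursors, stands among those of chromosome 1, and the ubiquitin-like modifier UBD and the receptor gene MAS1L among those of chromosome 6. ZNF317, a zinc finger gene, stands among those of chromosome 19, and on chromosome 9 a run of 8 receptor genes, OR13F1 to OR13D1, holds no other protein-coding gene. Which region lies at which of these genes was not determined, because the RefSeq positions are those of another build.

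Receptor promoters are poor in the CpG sites that mark most promoters of broadly expressed genes. Of the protein-coding receptor genes on these chromosomes, 260 have a sequence listed as promoter in RefSeq (build GRCh38.p14, 250 bases before to 50 bases after the annotated start). The median GC content of these sequences was 37.3%, with a median of 1 CpG, against 62.3% and 21 CpG for all 22199 protein-coding genes listed. No CpG at all was found in 23.1% of the receptor sequences, against 1.96% of all. Where the annotated start is the coding start, the stretch need not be the promoter. For how many receptor genes that holds was not determined. The sequences with the GC content nearest to the receptor median on chromosomes 11 and 14 are shown as examples of this GC content. They run 5′ to 3′ on the strand of the gene, with CpG in capitals. With 3 CpG in OR52E8 and 2 in OR4K1, both hold more than the receptor median of 1. In OR52E8 the last 50 bases begin with ATG and run on in that frame without a stop codon. Its annotated start may thus be the coding start, and 1 of its 3 CpG lies in these 50 bases. The last 50 bases of OR4K1 do not begin with ATG. OR52E8 lies on the minus strand at chr11:5857641-5857940 and OR4K1 on the plus strand at chr14:19930667-19930966. Both positions are on GRCh38.p14 and cannot be set against the hg19 positions of the regions.
OR52E8: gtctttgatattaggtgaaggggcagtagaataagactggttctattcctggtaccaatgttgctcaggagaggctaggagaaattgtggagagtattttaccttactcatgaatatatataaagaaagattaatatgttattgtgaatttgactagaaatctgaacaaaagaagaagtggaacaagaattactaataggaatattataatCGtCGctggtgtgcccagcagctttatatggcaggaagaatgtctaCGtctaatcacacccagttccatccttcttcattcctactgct
OR4K1: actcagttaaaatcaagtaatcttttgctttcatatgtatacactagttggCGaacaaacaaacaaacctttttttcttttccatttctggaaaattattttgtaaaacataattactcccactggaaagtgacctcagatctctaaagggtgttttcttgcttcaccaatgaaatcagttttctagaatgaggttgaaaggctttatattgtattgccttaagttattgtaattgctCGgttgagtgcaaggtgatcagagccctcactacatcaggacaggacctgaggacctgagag

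Called accessible sites were sparse in the windows in every library. The windows held 74, 70 and 51 peaks in knockdown replicates 1, 2 and 3 and 33, 44 and 45 in control replicates 1, 2 and 3. This was 9.76, 9.24 and 6.73 peaks per Mb in the knockdown libraries and 4.35, 5.81 and 5.94 in the control libraries. The rest of the genome, counted over 1 Mb bins that hold a peak in at least 1 library, had 40.1, 35.5 and 30.4 peaks per Mb in knockdown and 17.6, 18.6 and 23.7 in control. Density in the windows was 0.255 times that of the rest, a mean log2 ratio of -1.97 ± 0.165 (SD, n = 6), lower in 6 of 6 libraries (exact paired permutation test, two-sided, p = 0.03125, the smallest that 6 pairs can give). The flanks were up to 0.5 Mb on both sides of each window, less where another window lay near, 9.15 Mb in all. They were not cut at the far end of a chromosome. Against the flanks the ratio was 0.194, again lower in 6 of 6 libraries (exact paired permutation test, two-sided, p = 0.03125). The flanks held more peaks per Mb than the rest of the genome, 42.3 ± 4.93 against 35.4 ± 4.85 in knockdown and 28.6 ± 2.64 against 19.9 ± 3.27 in control (SD, n = 3 each). The windows were sparse without being the emptiest part of the genome, as 13.1% of the 2891 bins of 1 Mb outside them held fewer peaks than the mean of 6.97 per Mb in the windows.

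**Figure D1:**
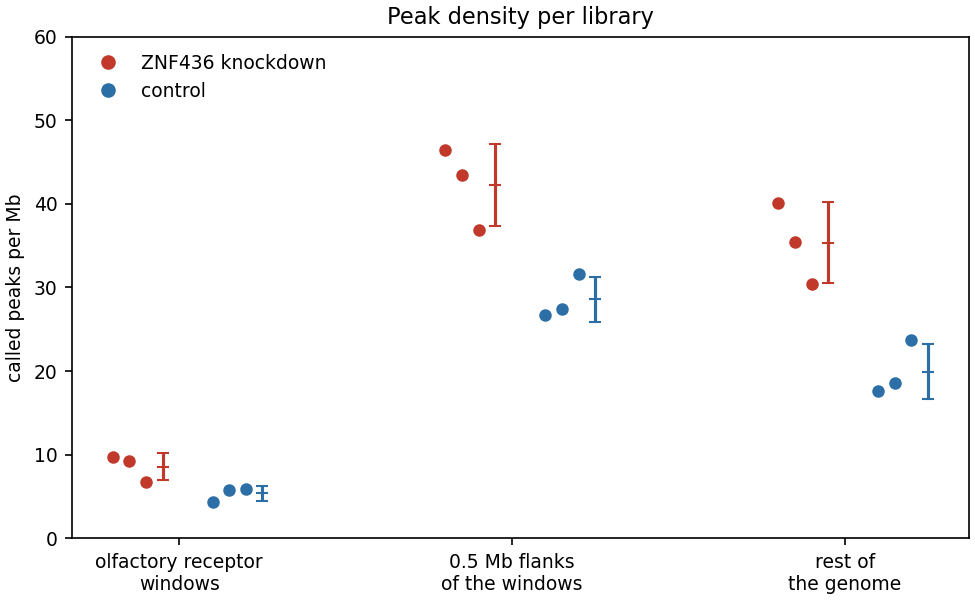
Called peaks per Mb in the olfactory receptor windows, in the flanks of up to 0.5 Mb and in the rest of the genome. Points are libraries, with the mean and SD (n = 3) beside them, knockdown in red and control in blue. All 6 libraries lie below 10 peaks per Mb in the windows, where the flanks start at 26.7.

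The knockdown lists held more peaks in the windows, by about as much as they held more peaks in all. The mean was 65 ± 12.3 peaks in knockdown and 40.7 ± 6.66 in control (SD, n = 3 each), a ratio of 1.6 ± 0.4, and each of the 3 knockdown libraries was above each control library (exact permutation test, two-sided, p = 0.1, the smallest that 3 against 3 can give). The same ratio for whole lists was 1.77 ± 0.379. Peaks in the windows covered 23.9, 23.3 and 18.2 kb in knockdown and 9.49, 10.9 and 13.5 kb in control, a ratio of 1.93 ± 0.448 (exact permutation test, two-sided, p = 0.1). As a share of each list, the windows took 0.0639, 0.0683 and 0.058% of the peaks in knockdown and 0.0651, 0.082 and 0.0658% in control. The groups overlapped, with means of 0.0634 ± 0.00516% in knockdown and 0.071 ± 0.00955% in control (SD, n = 3 each; p = 0.4 by two-sided exact permutation). The share of covered bases was 0.0497 ± 0.00343% in knockdown and 0.0477 ± 0.00331% in control (SD, n = 3 each; p = 0.6 by two-sided exact permutation). With all lists at the length of the shortest, the ratio of peaks was 0.895 and that of covered bases 1.32, so the ratio above 1 for peak number is not present at equal list length. Such lists keep only the highest-scoring peaks of the longer lists. The ratio of covered bases over whole lists of equal length is not given, so 1.32 is not read as particular to the windows.

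Peak density differed between the windows, with means over all libraries from 0 to 22.6 peaks per Mb. The window of chromosome 9, 0.3 Mb long, had no peak in any of the 6 libraries. The third window of chromosome 11, the longest at 1.6 Mb, had 6, 9 and 3 peaks in knockdown and 2, 6 and 2 in control, or 2.92 per Mb over all libraries. No library had a peak in its stretch chr11:55026462-55638318, which at 611.9 kb was the longest empty stretch of the 10 windows. The window of chromosome 1 had an empty stretch of 502.8 kb and that of chromosome 6 of 415.5 kb, which is 69.3% of that window. At the other end, the window of chromosome 19 had 9, 9 and 5 peaks in 0.28 Mb in knockdown and 3, 5 and 7 in control. Its 22.6 peaks per Mb over all libraries were near the genome's median of 21.7 per bin of 1 Mb, so the chromosome 19 window was not sparse by this measure. The first window of chromosome 11 came next, with 12.2 per Mb, and the second with 9.07.

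**Figure D2:**
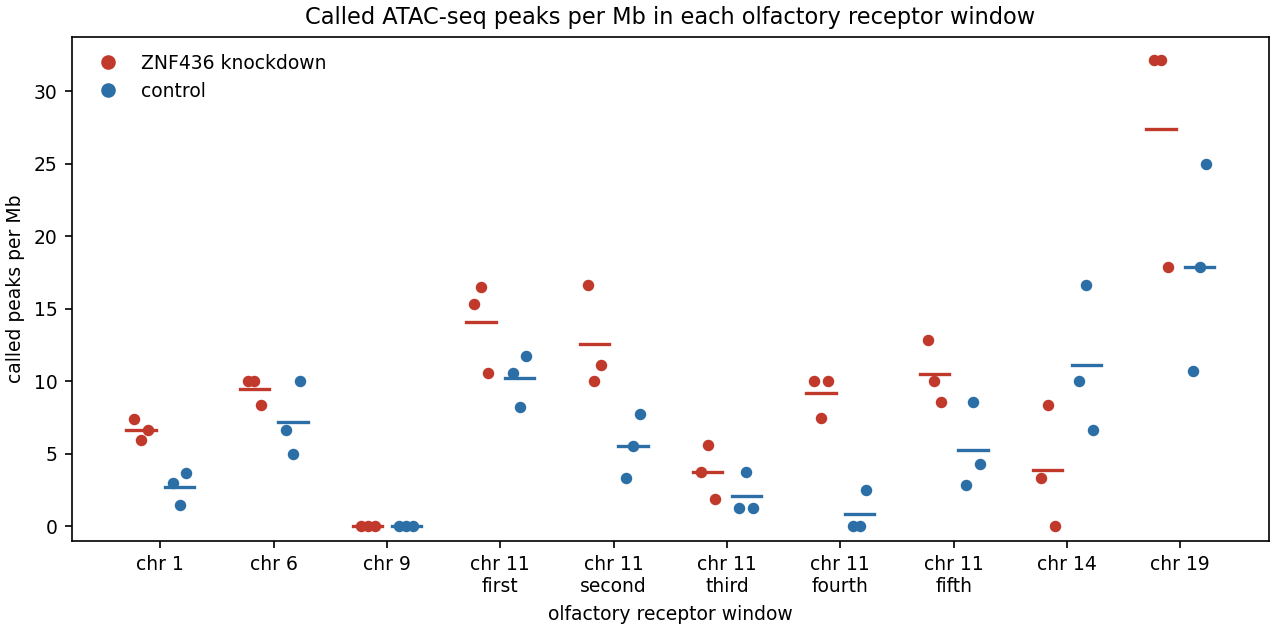
Called peaks per Mb in each of the 10 windows, with 1 point per library, bars at the group mean (n = 3), knockdown in red to the left and control in blue to the right. Chromosome 9 is at 0 in all libraries, chromosome 19 is highest, and chromosome 14 is the window with a lower mean in knockdown.

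Regions were denser towards the ends of the windows when all were pooled, but not in each window. The outer 100 kb at each end make up 26.4% of the length and held 53 of the 130 regions (40.8%). This was 26.5 regions per Mb, against 13.8 per Mb further in. These parts held 7 of 14 regions on chromosome 1, 9 of 11 on chromosome 6 and 8 of 25 on chromosome 14. On chromosome 19 they held 8 of 10, but most of that window of 0.28 Mb counts as outer. In the chromosome 11 windows, by position, they held 3 of 18, 4 of 18, 6 of 15, 2 of 5 and 6 of 14. The windows with 3 of 18, 4 of 18, 2 of 5 and 8 of 25 were no denser at their ends than further in. Of the 11 regions called in all 6 libraries, 4 were in these outer parts, and the nearest to an end was chr6:29595980-29596918, whose middle lay 3.55 kb inside the window of chromosome 6.

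Knockdown had the higher mean number of peaks in 8 windows and the lower in 1. The 3 knockdown values lay wholly above the 3 control values in 3 windows, where 86.8% of all 2862 features tested (these windows and 1 Mb bins of the genome) did the same, and wholly below them in 0 windows, where 0.384% of all features did. Compared as shares of each list in a fit across all features (limma, Benjamini-Hochberg adjusted p under 0.05), 9 windows had enough peaks for a test. Of these, 1 was under the threshold and higher in knockdown, where 19.9% of all features were, and 1 was lower, where 10.3% of all features were. The higher one met the minimum mean of 2 peaks only through its knockdown libraries, so nothing is read from that count. The median change over all features was 0.16 on the log2 scale, and relative changes have it subtracted. The median relative change over the 9 windows was -0.19, with 4 above 0 and 5 below. Each p of this fit tests the change before the median was subtracted.

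The fourth window of chromosome 11 was the one with the higher value. It held 4, 3 and 4 peaks in knockdown and 0, 0 and 1 in control, and the groups did not overlap. The control mean was 0.333 peaks, so the window entered the fit through the libraries in which it was high, and its values are a description. The log2 change tested was 1.69 (SE 0.55; limma adjusted p = 0.0341, and 0.0222 in a fit with no filter on low peak numbers). Relative to the median of all features it was 1.53. With so few peaks the relative change moves with the pseudocount, to 0.92 with 1 in place of 0.5. The call was lost without control replicate 1 (limma adjusted p = 0.0528), with scaling to the median ratio (0.0501) and for bases covered in place of peaks (0.0641). Without any 1 of the knockdown libraries, or with equal lists, the window had too few peaks for a test. Of its 5 regions, 1 at chr11:58039444-58039725 was called by each knockdown library but by no control library, at score percentiles of 16.6, 58.3 and 17.8 in knockdown replicates 1, 2 and 3. The score is the authors' value per peak, and its percentile is the peak's rank within its own list, with 100 the strongest. Another at chr11:58291742-58292357 was called in the 3 knockdown libraries and in control replicate 3, and lay 7.95 kb from the end of the window.

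The window of chromosome 14 was the lower one. It held 2, 5 and 0 peaks in knockdown and 6, 10 and 4 in control, so the peak numbers overlapped, but as shares of the lists the groups did not. The log2 change tested was -2.66 (SE 0.67; limma adjusted p = 0.0114), and relative to the median of all features it was -2.82. The call was lost without control replicate 1 (relative change -2.77, limma adjusted p = 0.0599) and without control replicate 2 (relative change -2.44, limma adjusted p = 0.0667). It stayed without each of the other 4 libraries. The peaks there were unlike those of the other windows. Of its 25 regions, 23 were called in a single library, 18 of them in control and 5 in knockdown, and no region was called in both groups. All but 1 of the regions lay within 259 kb, at chr14:20156938-20416411, followed by 296.5 kb without a peak. The peaks were weak within their lists, with a median score percentile of 11.7 and none above 39.5, against a median of 48.8 for the 290 peaks of the other windows. The regions were also narrow, with a median of 193 bp and at most 301 bp, against a median of 250 bp for the regions of the other windows.

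**Figure D3:**
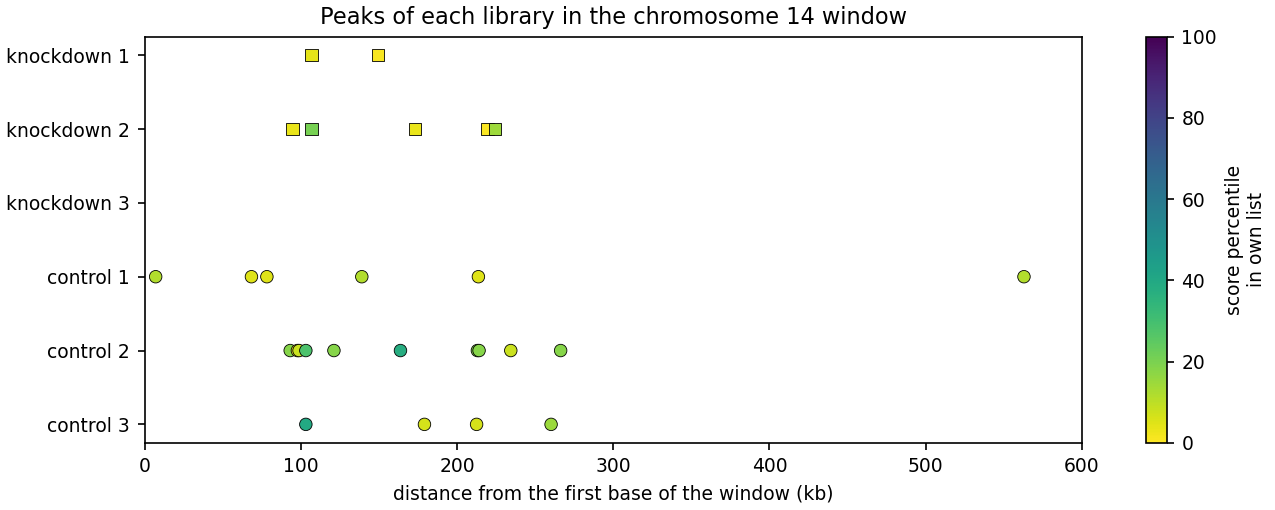
Peaks of each library in the chromosome 14 window, placed by distance in kb from its first base, with knockdown rows (squares) above control rows (circles). Colour is the score percentile within the library's own list. Peaks of different libraries rarely coincide, control replicate 2 has the most with 10 and knockdown replicate 3 has none.

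Without the window of chromosome 14, an alternative chosen after seeing the data, the other 9 windows held 62.7 ± 10.7 peaks in knockdown and 34 ± 7 in control (SD, n = 3 each), a ratio of 1.84. Their share of the lists was then 0.0612 ± 0.00282% in knockdown and 0.0589 ± 0.00516% in control (exact permutation test, two-sided, p = 0.6), so that the sign of the small difference in share turned with this window.

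The other 7 windows tested did not pass the threshold. Their changes are given relative to the median of all features, while each p tests the change before that median was subtracted. The window of chromosome 1 held 10, 8 and 9 peaks in knockdown and 4, 2 and 5 in control (relative log2 change 0.27, SE 0.30; limma adjusted p = 0.278). The second window of chromosome 11 held 15, 9 and 10 in knockdown and 3, 5 and 7 in control (0.15, SE 0.25; limma adjusted p = 0.364). In both, every knockdown library had more peaks than any control library, while the shares of the lists overlapped. The first window of chromosome 11 held 13, 14 and 9 in knockdown and 9, 7 and 10 in control (-0.55, SE 0.20; limma adjusted p = 0.149). The window of chromosome 6 held 6, 6 and 5 in knockdown and 4, 3 and 6 in control (-0.60, SE 0.28; limma adjusted p = 0.248). These 2 overlapped between the groups in number and in share. The fifth window of chromosome 11 held 9, 7 and 6 in knockdown and 2, 6 and 3 in control, and the relative changes of this window, the third of chromosome 11 and that of chromosome 19 were 0.02, -0.19 and -0.40 (limma adjusted p = 0.72, 0.97 and 0.543).

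Few regions of the windows were found in every library. Of the 130, 11 (8.46%) were called in all 6 libraries, where 18.2% of all regions were, and 61 (46.9%) in a single library, where 38.3% of all regions were. Another 3 (2.31%) were called by every knockdown library but by no control library, where 7.72% of all regions were. The reverse, every control library but no knockdown library, held for 0, where it held for 0.131% of all regions. The difference between these shares and those of the genome was not tested. In the flanks, 26.4% of 568 regions were called in all 6 libraries and 5.46% only in knockdown. Of the 61 regions of a single library, 34 were from knockdown (26.2% of the 130, against 28.5% of all regions) and 27 from control (20.8%, against 9.85% of all regions). Of these, 5 from knockdown and 18 from control lay in the chromosome 14 window, and 29 from knockdown and 9 from control in the others.

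**Figure D4:**
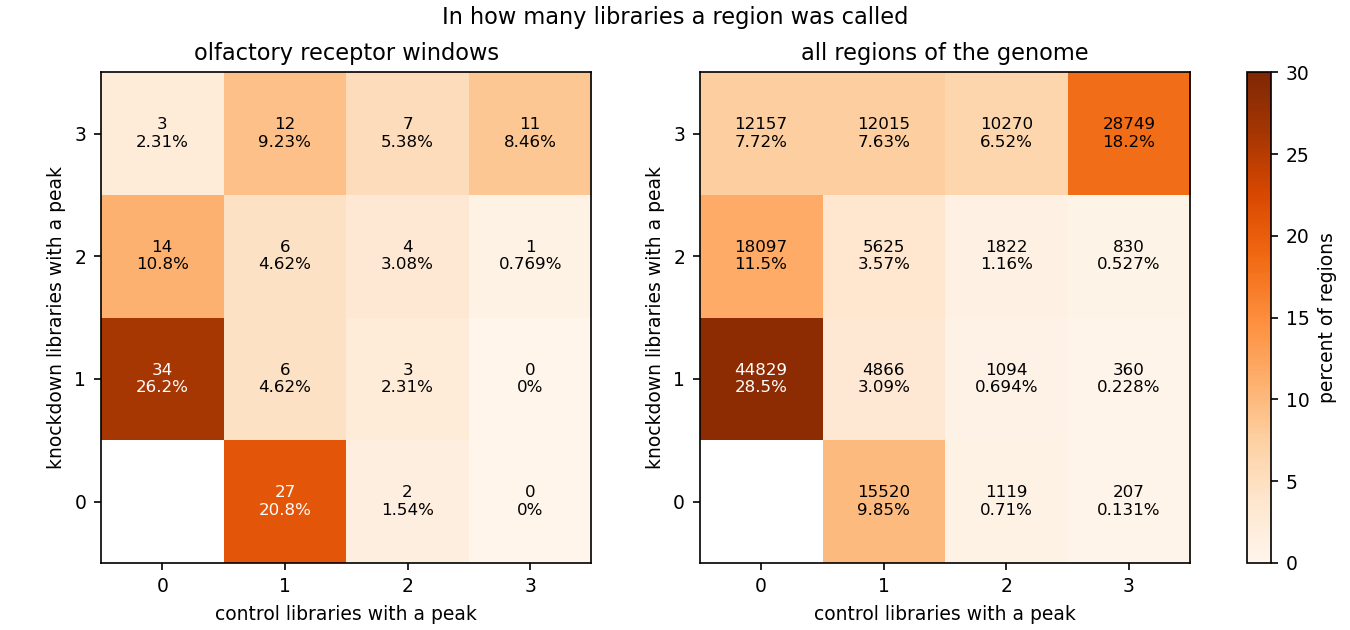
Number and percent of regions by how many knockdown libraries (vertical) and control libraries (horizontal) called them, for the 130 regions of the windows and for all 157560 regions. In the windows the corner called in all 6 libraries holds 8.46%, against 18.2% of all regions.

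The libraries resembled each other less in the windows than over the genome. The Jaccard index, the covered bases shared by a pair of libraries divided by those covered in either, averaged 0.472 between knockdown libraries, 0.305 between control libraries and 0.312 between groups. Over whole lists these were 0.568, 0.503 and 0.414. By these means the control libraries were, within the windows, about as unlike each other as they were unlike the knockdown libraries. Single pairs ran from 0.241 to 0.39 within control and from 0.199 to 0.413 between groups. Those with control replicate 2 were the lowest of all pairs, from 0.199 to 0.284.

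The 3 regions called only in knockdown had score percentiles from 16.6 to 84.3. At chr11:5653539-5653786, in the second window of chromosome 11, the score percentiles were 52, 60.8 and 57.9 in knockdown replicates 1, 2 and 3. At chr1:247715133-247715516 they were 84.3, 65.1 and 42.3. The third was the region of the fourth chromosome 11 window given above. With lists of equal length each of the 3 was missing from at least 1 knockdown list, and none was then called only in knockdown. A further 14 regions (10.8%, against 11.5% of all regions) were called in 2 knockdown libraries and no control library.

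Another 19 regions were called by all 3 knockdown libraries and by 1 or 2 control libraries (14.6%, against 14.1% of all regions), while 1 was called in all 3 control libraries and in 2 knockdown libraries (0.769%, against 0.527% of all regions). That last region, chr11:55014982-55015269, stood 15.1 kb inside the third window of chromosome 11 at percentiles of 44.3 and 41.6 in knockdown replicates 1 and 2 and of 71.1, 69.1 and 51 in the control replicates. Among the 19, the mean percentile over the 3 knockdown lists ran from 21.6 to 75.8 with a median of 58.7, and that over the control lists that called the region from 8.07 to 74.9 with a median of 43.5. The 19 were picked by their calls in knockdown and the lists differ in length, so nothing is read from the difference between these medians. The window of chromosome 1 gave 5 of them. The strongest there was chr1:248100197-248100738, at 78.5, 85.5 and 63.4 in knockdown and 63.3 and 86.4 in control replicates 1 and 3. Of the 7 regions called in 3 knockdown and 2 control libraries, 6 were missing from control replicate 2. Over all regions of the genome called in this way, control replicate 2 lacked 47.9%.

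The 11 regions called in all 6 libraries spread over 5 windows, with 4 in the first window of chromosome 11, 2 each in the second and the fifth, 2 on chromosome 19 and 1 on chromosome 6. None was on chromosomes 1, 9 or 14, in the third window of chromosome 11 or in the fourth. Their median width was 805 bp, close to the 873 bp of all 28749 such regions. By score, 2 of them stood in the top 10% of every list. The strongest was chr11:5705622-5706643, with score percentiles of 99.5, 98.7 and 99.4 in knockdown and 94.4, 95.1 and 98.1 in control. The other was chr11:4628885-4629814, with 96.3, 95.4 and 92.8 in knockdown and 92.4, 91.7 and 94 in control. The next, chr11:123611907-123612800, stood at 94.2, 91.5 and 86.7 in knockdown and 84.9, 87.4 and 92 in control. The region chr6:29595980-29596918 had 85, 92.5 and 94 in knockdown and 75, 80.2 and 86.4 in control, and chr19:9250936-9251500 had 86.7, 83.7 and 82 in knockdown and 81.9, 69.1 and 80.1 in control. The other 3 in the first window of chromosome 11 were weaker, with a lowest percentile of 28.4 to 41.4. There, chr11:4658197-4658879 stood at 72.3, 73.3 and 83.8 in knockdown and 41.4, 74.5 and 68.9 in control, and chr11:4884933-4885578 at 82, 67.1 and 71.6 in knockdown and 51.9, 28.4 and 55.7 in control. At the weak end, chr19:9185907-9186711 stood at 65.2, 74.6 and 42.3 in knockdown and 60.1, 18.1 and 32.3 in control, and chr11:6117599-6118086 at 65.2, 60.8 and 31.2 in knockdown and 41.4, 37.5 and 59.7 in control.

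A percentile in a longer list is not comparable with one in a shorter list. Ranked instead among the 28749 regions that all 6 libraries called, the 11 regions showed no common direction, with 4 higher and 7 lower in mean rank in knockdown. The groups did not overlap for 1 of them, chr11:6117599-6118086, which was lower in knockdown (9.08 ± 4.90 against 17.9 ± 5.15, SD, n = 3 each). Over all such regions, 12.5% were lower without overlap and 11.3% higher. The largest difference was that of chr11:123985710-123986922, with ranks of 35.2, 63.1 and 39.4 in knockdown and 22.6, 7.7 and 45.5 in control, which overlapped.

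That region was also the widest of the 130, at 1213 bp. Its peaks covered 1213, 1088 and 744 bp in knockdown and 150, 137 and 507 bp in control. In a fit of covered bases across all 28749 regions, its log2 change was 2.19 (SE 0.50; limma adjusted p = 0.0363), where the median over all regions was 0.47. At chr19:9185907-9186711 the peaks covered 585, 676 and 511 bp in knockdown and 322, 278 and 284 bp in control, a log2 change of 1.00 (SE 0.23; limma adjusted p = 0.0349). At chr11:4884933-4885578 they covered 639, 446 and 601 bp in knockdown and 319, 151 and 443 bp in control, which did not overlap, but the same log2 change of 1.00 had the larger SE of 0.40 (limma adjusted p = 0.11). The first 2 of these, of the 11, were the regions under the threshold of 0.05, where 12.5% of all regions were higher and 0.16% lower. The 11 changes were all above 0, with a median of 0.46, no larger than that of all regions. Knockdown values lay wholly above control values in 5 of the 11, where 47.2% of all regions did. Both calls were lost when widths were centred on each library's median (lowest limma adjusted p = 0.116). With centring 22 of all 28749 regions were higher under the threshold, against 3597 without it. The 2 calls were also lost without each library in turn except control replicate 3, without which 3 of the window regions were under the threshold. Over the genome, 0 regions were higher without each knockdown library in turn. Without control replicates 1, 2 and 3 in turn, 1408, 1301 and 6806 were.

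Peaks in the windows were narrower than those of the whole lists in all 6 libraries, and in 5 of 6 their median score lay below that of the list. The median score percentile of the peaks in the windows was 52, 45.7 and 46.9 in knockdown and 41.4, 18.1 and 45.6 in control replicates 1, 2 and 3, where a whole list has 50. With lists of equal length the means of these medians were 37.4 in knockdown and 35.3 in control, where the full lists gave 48.2 in knockdown and 35.1 in control. In control replicate 2, 52.3% of the peaks in the windows lay in the lowest 25% of scores, the largest part in any library. This part was 21.6 to 31.4% in the knockdown libraries and 26.7 to 30.3% in the other control libraries. The median width was 236, 245.5 and 275 bp in knockdown and 178, 206 and 205 bp in control, which did not overlap (exact permutation test, two-sided, p = 0.1, the smallest possible). Over whole lists it was 290 to 306 bp in knockdown and 271 to 290 bp in control. As a share of the median of its own list, the median width was 0.849 ± 0.0495 in knockdown and 0.704 ± 0.078 in control (SD, n = 3 each; p = 0.1 by two-sided exact permutation). Among peaks with scores at or above the median of their list the difference between the group means, 55.8 bp over all peaks, was 16.5 bp, and with lists of equal length it was 128 bp. Lists of equal length keep only the highest-scoring peaks of the longer lists, so the 128 bp compares unlike parts of the lists. The tests of median width were not among the planned ones.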

How the data were processed

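The deposited files were 1 list of peaks per library, 6 in all, with positions on hg19 and an integer score per peak. The score is the peak caller's value as the authors deposited it, with a lowest value of 20 to 25 per list, and it served only to rank peaks within a list (ties share their mean rank). Start and end positions, the other values used, are in bases per the deposited lists. The submitters' processing notes name hg19, bedtools 2.30.0 and Bowtie2 2.4.5 without their roles. Per the peak names in the files, peaks came from MACS and were called per library. The sources used here do not give its version and threshold, the Tn5 shift, the treatment of duplicates or that of reads that match several near-identical receptor copies. No depth is given, so no counting error could be computed.

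An overlap of 1 bp with a peak sufficed for a region to count as called. Peaks and regions were put in windows by midpoint. Peaks per window and per 1 Mb bin (mean of at least 2) were turned into log2((peaks + 0.5) / list length × median length) and fitted with limma 3.58.1 (trend, robust) in R 4.3.3, with Benjamini-Hochberg adjustment over all features. Covered bases of shared regions were fitted on the log2 scale in the same way. Single values were compared by exact permutation over libraries. Both fits were also run on simulated data, with noise of a set size that was not taken from these data, and nothing is read from those runs here. The rest used Python 3.11.15, pandas 2.3.3 and scipy 1.17.1. Regions named are those called in all 6 libraries, those called in 3 of 3 against 0 of 3 and the widest, with others named as members of a count or as examples after their values were seen. Windows, lists and tests were chosen with earlier results of these data known. Alternatives changed the list length, the score threshold, the window edges, scaling, merging and the libraries used. Marker genes and gene names of regions need an annotation of hg19 and were not analysed here.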

Additional observations from a re-analysis of the deposited data

How the results depend on the processing

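Density against the rest kept its direction in every setting run, with -2.02 for equal lists, -2.25 for the stronger part of each list (scores at or above its median), -2.29 with windows shrunk by 100 kb at each end and -2.37 against the flanks. It was -2.03 to -1.93 without 1 library, where 5 pairs cannot give a p under 0.0625. The ratio of peak number, 1.6, was 0.895 with equal lists, 2.29 with the stronger part and 1.46 to 1.77 without 1 library, and that of covered bases, 1.93, was 1.32, 2.4 and 1.78 to 2.14. The share differed by -0.00756 percentage points, by 0.0136 with the stronger part and by -0.0105 to -0.00204 without 1 library. The width difference of 55.8 bp was 128 bp with equal lists, 16.5 bp with the stronger part and 44.4 to 63.9 bp without 1 library. The mean of the median percentiles was 48.2 in knockdown and 35.1 in control, 37.4 and 35.3 with equal lists, 41.1 and 39.5 with the stronger part, and 52 and 40.3 with shrunk windows (knockdown, then control).

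Regions called only in knockdown numbered 3, against 0 with equal lists, 6 with the stronger part, 10 when peaks had to cover 50% of the region, 17 when 2 of 3 libraries sufficed and 4 to 10 without 1 library. Those called only in control numbered 0, against 1 with equal lists and with the stronger part, 2 when 2 of 3 sufficed and 0 to 1 without 1 library. Those called in all numbered 11, against 5 with the stronger part or 50% cover, 7 with shrunk windows, 19 when 5 of 6 sufficed and 11 to 17 without 1 library (17 without control replicate 2).

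Of the windows, 2 were called (1 higher, 1 lower). There was 1 (lower) with equal lists, shrunk windows, bases covered and scaling to the median ratio, 0 with the stronger part, where both had too few peaks for a test, 5 without scaling (4 higher, 1 lower) and 0 to 2 without 1 library. Without scaling, the median change of all features was 0.99. Small relative changes turned sign. That of the fifth window of chromosome 11 was -0.04 with equal lists, -0.05 with a pseudocount of 1 and -0.22 to 0.46 without 1 library. That of the third was 0.28 with shrunk windows and -0.55 to 0.34 without 1 library, and that of the second -0.06 to 0.29 without 1 library. That of chromosome 1 was -0.15 with shrunk windows, and that of chromosome 19 was 0.30 with the stronger part. Of the widths of all shared regions, 3597 were called higher, 22 with centring and 0 with the replicate block. Of the shared widths in the windows, 2 were called, 0 with centring or the replicate block (lowest limma adjusted p 0.065) and 0 to 3 without 1 library. Centring turned 6 changes below 0 (-0.25, -0.34, -0.47, -0.32, -0.34 and -0.08), and without 1 library that of chr11:6117599-6118086 was -0.05 to 0.72 and that of chr19:9250936-9251500 was 0 to 0.38. For these changes the cause was not tested.

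With the replicate number as a block the ratios were 1.66 for peaks and 2 for bases, and the same 2 windows were called. Between same-numbered libraries, deviations from the group mean had correlations of 0.03, 0.11 and 0.09, and between differently numbered ones of -0.14 to 0.04. Since the same-numbered values do not all exceed 0.1, the numbers were not taken to pair the libraries, but whether they do was not tested. Depth is unknown and limits every count, and windows with few peaks, such as the fourth of chromosome 11, rest on few calls.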
